A study of Mus musculus with 8 samples.

Results

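The E2F and DP family comprises the 8 E2F transcription factors, E2f1 to E2f8, and their dimerization partners Tfdp1 and Tfdp2. Its members were taken as every probe set that the platform annotation gives to 1 of these 10 genes, which found 21 of the 45101 probe sets of the array table for 10 of its 18193 named genes, and no further probe set named a member beside another gene. The measurements came from Cd11b-positive cells, myeloid cells that carry this integrin subunit, sorted by FACS from bone marrow. The mice were 8 weeks old and of mixed background, with FVB and C57BL6 ancestry. The 4 control samples had the genotype E2F1-/-2+/+3f/f, which means E2f1 null, E2f2 intact and E2f3 floxed, with no Cre. The 4 experimental samples had the genotype Mxcre;E2F1-/-2-/-3f/f, which adds loss of E2f2 and the Mx-Cre transgene. By these labels both groups are E2f1 null and carry floxed E2f3. All mice received 250 µg of pIpC 5 times, once every other day, which raises interferon and through it drives the Mx promoter, and were killed 24 h after the last one. Mx-Cre acts in many interferon-responsive cells and not in myeloid cells alone, and Cre was present in every experimental sample and in no control, so effects of Cre and of the E2f genotype cannot be told apart. The labels do not say that each sample came from its own animal, so the p-values reflect the variation among these 8 samples, part of which may be technical.

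E2F proteins bind DNA at sites related to TTTCCCGC and TTTGGCGC and control genes of DNA replication and cell division. E2f1, E2f2 and E2f3 are classed as activators, which bind the retinoblastoma protein and switch genes on when it is phosphorylated. E2f4 and E2f5 are classed as repressors that act with the pocket proteins p107 and p130, and E2f6 represses through Polycomb group partners without a pocket protein. E2f7 and E2f8 are the atypical members, which bind DNA without a DP partner and repress genes that the activators switch on, while the other E2Fs need Tfdp1 or Tfdp2 to bind DNA well. Several E2f genes are themselves known targets of E2F proteins.

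The promoters of the members on which the results turn are shown because 3 of them hold such a site in the RefSeq windows of GRCm38.p6. Each window runs, to within a base, from 250 bases before to 50 bases after an annotated start, and TTTCCCGC and TTTGGCGC were searched on both strands. In all, 514 of 32851 windows (1.56%) held either one, 6 of them both, and 3 of 12 family windows from 8 members did, one each of E2f2, E2f3 and E2f7. The matches are descriptions of letters and not measured binding. Given 5′ to 3′ with the match in capitals are 250 bases each of E2f7 and E2f3. Those of E2f7, at chr10:110745189-110745438 on the plus strand, lie before the start. Those of E2f3, at chr13:29986064-29986313 on the minus strand, end on the outermost annotated base of the gene, 29986064, and so include the start base. In both the match reads GCGGGAAA, the reverse complement of TTTCCCGC. Its first base lies 198 bases before the start of E2f7, and in E2f3 it is base 11 from the 3′ end of the stretch. For E2f2 the match begins at base 40, counted from the start base, on the plus strand, and only the site at chr4:136172305-136172323 is given.
E2f7: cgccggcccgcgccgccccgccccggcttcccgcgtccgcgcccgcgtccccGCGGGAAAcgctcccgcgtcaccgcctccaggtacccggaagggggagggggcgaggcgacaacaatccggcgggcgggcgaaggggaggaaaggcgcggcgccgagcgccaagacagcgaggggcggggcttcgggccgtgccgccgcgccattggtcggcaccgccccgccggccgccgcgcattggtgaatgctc
E2f3: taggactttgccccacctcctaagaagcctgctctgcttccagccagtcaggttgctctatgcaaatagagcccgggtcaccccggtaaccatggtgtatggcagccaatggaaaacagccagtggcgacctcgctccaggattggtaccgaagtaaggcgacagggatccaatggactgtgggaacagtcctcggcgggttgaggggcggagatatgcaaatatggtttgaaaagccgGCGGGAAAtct
E2f2 site: gcatatagTTTGGCGCtaa
The windows of E2f1, E2f6, E2f8, Tfdp1 and Tfdp2 and the second windows of E2f2 and E2f3 held neither motif in full. Those of E2f1, E2f8 and Tfdp2 and these second windows lie wholly within the annotated span of their gene. The sequence before the outermost end of E2f1, E2f8 and Tfdp2 was therefore not searched. E2f4 and E2f5 had no full window and were not searched. The sources used here do not give a build for the array, and the positions serve only to place these sequences.

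Values are log2 after RMA (which corrects background, equalizes the distributions of arrays and combines probes). Medians of the arrays lay between 5.01 and 5.04, and probe sets differ in their binding, so levels are compared between samples and not between probe sets. The sorted cells carried the sort marker at 11.58 in controls and 11.54 in experimental samples (Itgam), and the neutrophil genes S100a8 and S100a9 lay near the top of the scale in both groups. The fit of experimental minus control with limma, adjusted over 45037 probe sets at a threshold of 0.05, called 2.58% of them (1.03% higher and 1.55% lower). Marker genes of other cells differed between the groups: 5 of 11 B cell genes, 3 of 5 megakaryocyte and platelet genes and 2 of 7 dendritic cell genes fell, 2 of 6 eosinophil or mast cell genes rose, and no T or NK cell gene (of 8) or erythroid gene (of 8) passed limma's test, although 3 and 2 of them had an unadjusted p under 0.05. One of 13 myeloid genes fell, Csf3r, the receptor for G-CSF. Over all 18193 genes, each by its brightest probe set, 3.47% were called. At an unadjusted limma p under 0.05, 1652 of all genes were higher and 1783 lower. The log2 difference between the 3′ and 5′ probe sets for beta-actin, which rises as RNA degrades, was 0.27 to 0.32 in controls and 0.34 to 0.54 in experimental samples, and that of Gapdh overlapped between the groups. The summed level of the B cell markers, as the log2 of summed linear values, was 10.67 to 11.66 in controls and 9.73 to 10.26 in experimental arrays, and that of the platelet markers was 9.08 to 9.74 and 8.38 to 8.58. That of the dendritic cell markers, in which Irf8 is the brightest, was 10.58 to 10.87 and 9.17 to 10.73, whereas the mean of their log2 values was 6.76 to 6.92 and 5.87 to 6.32 without overlap. No marker can read 0 on this scale. RNA from fewer cells of a type cannot be told apart from less RNA per cell in such bulk samples.

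Of the 21 family probe sets 2 fell and none rose, 9.52% against 2.58% of all probe sets called in either direction, with no test of the difference between these shares. Those that fell belonged to the atypical repressor E2f7 and to E2f2, the activator deleted in the experimental genotype. At an unadjusted limma p under 0.05, 3 of the 21 probe sets were higher and 4 lower, the 2 called ones included. Over all 45037 probe sets tested, 3358 were higher and 4305 lower at this threshold. Experimental and control arrays did not overlap at 5 family probe sets, 23.8% of them, against 10.8% of all probe sets. Of these, 2 of E2f2 and 1 of E2f7 were lower (background 6.15%), and 1 of E2f3 and 1 of Tfdp2 were higher (background 4.64%). The median difference over the family was 0.18 on the log2 scale, against 0.003 over all probe sets tested. By class, the median was 0.24 over 7 activator probe sets (1 fell), 0.01 over 6 of the canonical repressors (none called), -0.39 over 3 of the atypical members (1 fell) and 0.43 over 5 of the DP partners (none called).

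**Figure D1:**
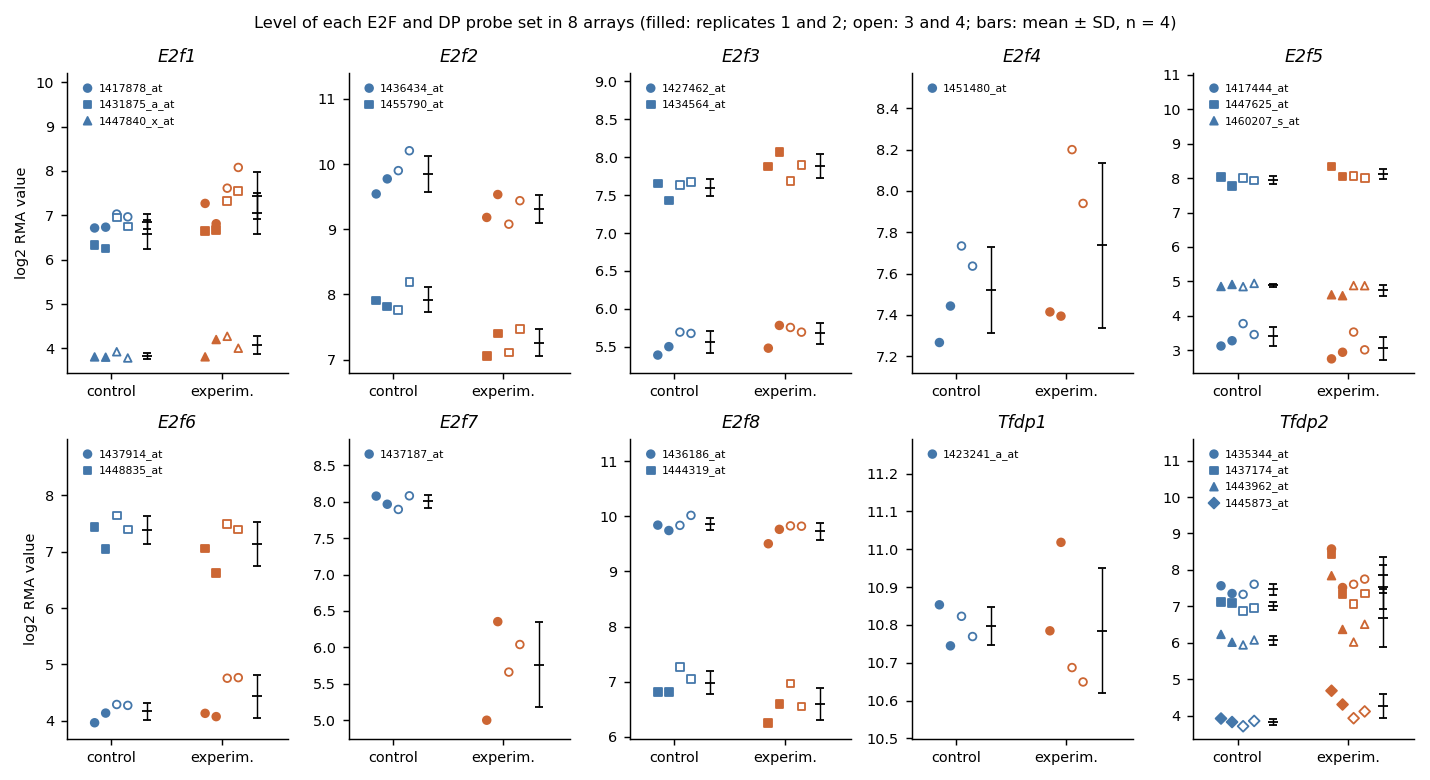
Log2 RMA value (vertical axis) of each of the 21 probe sets in the 4 control (blue) and 4 experimental (orange) arrays, with filled points for replicates 1 and 2, open points for 3 and 4, and bars for mean ± SD. The vertical axes differ between genes; E2f7, both probe sets of E2f2 and 1 each of E2f3 and Tfdp2 separate the groups, and E2f4 and 1 probe set each of E2f1 and E2f6 separate replicates 1 and 2 from 3 and 4.

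Among the activators, E2f2 was the only gene with a call, and its probe sets differed in the same direction. Probe set 1455790_at read 7.91, 7.82, 7.76 and 8.19 in controls and 7.06, 7.40, 7.11 and 7.47 in experimental samples. All experimental arrays lay below all controls, and the difference of -0.66 ± 0.13 (SE, limma adjusted p = 0.0351) left 63.4% of the control level. At 1436434_at the controls read 9.54, 9.77, 9.90 and 10.20 and the experimental samples 9.18, 9.53, 9.08 and 9.44. These groups were separated only narrowly, since experimental replicate 2 lay just below control replicate 1, and the difference of -0.55 ± 0.16 did not pass (limma adjusted p = 0.107). Between replicates 1 and 2 the latter difference was -0.30 and between replicates 3 and 4 it was -0.79, while at 1455790_at the corresponding values were -0.63 and -0.68. When 1 array was left out, the call at 1455790_at was kept in 2 of 8 fits, those lacking experimental replicate 2 or 4, and was lost without any one of the other arrays (limma adjusted p between 0.0343 and 0.0951). The experimental genotype is labelled E2f2 null in every cell, yet both probe sets read well above the array median in these samples. The place of the probe sets relative to the deleted part was not analysed here, and one outside it would check nothing about the genotype. The markers of B cells, platelets and, by their mean log2 value, dendritic cells given above moved with E2f2 as well, and their part was not tested.

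E2f1 is labelled null in both groups, yet 2 of its 3 probe sets read above the array medians in all 8 arrays, from 6.25 to 8.08. Their place relative to the deleted part was not analysed here, so these values do not check the genotype. The 3 probe sets read higher in experimental samples on average without passing. At 1417878_at controls read 6.71, 6.73, 7.03 and 6.97 and experimental samples 7.27, 6.81, 7.61 and 8.08, of which only replicate 2 overlapped the controls. The difference was 0.58 ± 0.23 (SE, limma adjusted p = 0.236, 95% interval 0.06 to 1.10), and it passed only without experimental replicate 2, at 0.79 and limma adjusted p = 0.0499 (0.0499 to 0.444 without 1 array). It was 0.32 between replicates 1 and 2 and 0.85 between replicates 3 and 4. At 1431875_a_at controls read 6.33, 6.25, 6.95 and 6.75 and experimental samples 6.64, 6.67, 7.32 and 7.55. Replicates 3 and 4 lay above replicates 1 and 2 in each group here, and each experimental array lay above the control of its own number, by 0.48 ± 0.24 on average (limma adjusted p = 0.345). With the style of the sample code as a block the adjusted p of limma was 0.0256 (0.0256 to 0.603 over the alternatives). At 1447840_x_at, a type of probe set that may bind other transcripts too, the levels were low, 3.79 to 3.93 in controls and 3.81 to 4.27 in experimental samples, below the array medians.

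E2f3, floxed in both groups and open to recombination in the experimental one, was not lower there at either probe set. At 1434564_at controls read 7.65, 7.43, 7.63 and 7.67 and experimental samples 7.88, 8.07, 7.69 and 7.90. All experimental arrays lay above all controls, replicate 3 by a narrow margin, and the difference was 0.29 ± 0.11 (SE, limma adjusted p = 0.201, interval 0.05 to 0.52). At 1427462_at the groups overlapped, with 5.39, 5.50, 5.69 and 5.68 in controls and 5.48, 5.78, 5.76 and 5.69 in experimental samples (0.11 ± 0.11, limma adjusted p = 0.657). Whether these probe sets cover the floxed part was not analysed here. Relative to E2f1 and to E2f3, E2f2 changed downward: E2f2 minus E2f1 moved by -1.13 ± 0.32 and E2f2 minus E2f3 by -0.83 ± 0.14 (SE, n = 4 each; two-sided exact permutation p = 0.0286 for each, adjusted p = 0.0286 over 3 pairs), with no overlap between the groups. With the arrays paired by replicate number the exact sign-flip permutation p was 0.125 for each, the smallest that 4 pairs can give. The permutation p of 0.0286 is likewise the smallest that 4 against 4 arrays can give. Both pairs were chosen with earlier results of these data known. They use the brightest probe sets, E2f2 1436434_at, E2f1 1417878_at and E2f3 1434564_at, none of which passed alone. The adjustment over 3 pairs does not correct for this choice, and E2f2 is labelled null in the experimental group alone. At 1436434_at and 1434564_at the groups already did not overlap, in opposite directions. The permutation p of E2f2 minus E2f3 was therefore fixed by these probe sets and adds no support.

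E2f7 showed the largest difference of the family. Its probe set 1437187_at read 8.08, 7.97, 7.90 and 8.08 in control replicates 1 to 4 and 5.0, 6.35, 5.66 and 6.04 in experimental replicates 1 to 4. The controls spanned 0.19, whereas the experimental arrays spread over 1.36, and the highest of them remained 1.54 below the lowest control. The means were 8.01 ± 0.09 and 5.76 ± 0.58 (SD, n = 4 each), a difference of -2.24 ± 0.24 (SE, limma adjusted p = 0.0035), so that the control level was 4.74-fold higher. The difference was -2.35 between replicates 1 and 2 of the groups and -2.14 between replicates 3 and 4. Leaving out 1 array gave -2.44 to -1.99, with adjusted p between 0.00286 and 0.0179 in limma, so the call did not rest on experimental replicate 1, the lowest. E2f7 is known in other cells as a gene that E2F activators switch on and as a repressor of the same target genes. The summed B cell and platelet marker levels and the mean log2 value of the dendritic cell markers separated the groups in the same direction. The part of these cells in the difference of E2f7 was not tested.

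E2f8, the other atypical member, is measured by a pair of probe sets, neither of which passed. Probe set 1436186_at read 9.84, 9.74, 9.84 and 10.02 in controls and 9.50, 9.76, 9.83 and 9.82 in experimental samples, so that only experimental replicate 1 lay below all controls. Its difference was -0.13 ± 0.11 (SE, limma adjusted p = 0.587), with a 95% interval of -0.37 to 0.11. Probe set 1444319_at read 6.82, 6.81, 7.26 and 7.05 in controls and 6.25, 6.60, 6.97 and 6.55 in experimental samples, with experimental replicate 3 inside the control range. Its difference was -0.39 ± 0.16 (limma adjusted p = 0.249, interval -0.75 to -0.03). The per-array value of E2f7 minus E2f8, taking the brightest probe set of each, lay between -1.94 and -1.76 in controls and between -4.50 and -3.41 in experimental samples. The groups did not overlap, and the change in this difference was -2.11 ± 0.24 (SE, n = 4 each, two-sided exact permutation p = 0.0286, the smallest that 4 against 4 arrays can give, also 0.0286 after adjustment over 3 pairs). By these brightest probe sets the change of E2f7 exceeded that of E2f8 by 4.33-fold. With the probe sets of each gene averaged, the change in the difference was -1.98. With the arrays paired by replicate number, the exact sign-flip permutation p was 0.125, the smallest that 4 pairs can give. The pair was chosen with earlier results of these data known.

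**Figure D2:**
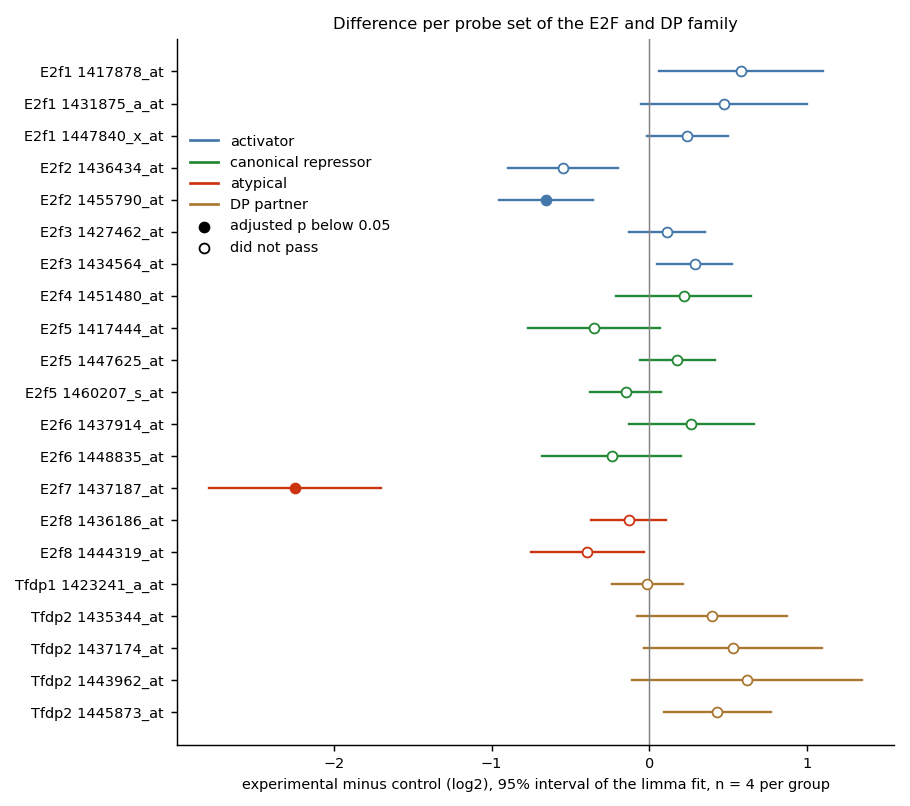
Difference between experimental and control samples (log2, horizontal axis) for each of the 21 probe sets with its 95% interval from the limma fit (n = 4 per group), coloured by class; filled points have an adjusted p under 0.05. E2f7 at -2.24 stands apart from the other probe sets, which lie between -0.66 and 0.62.

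No change was detectable among the canonical repressors: none of 6 probe sets passed limma's test, none had an unadjusted p under 0.05, and none separated the groups. E2f4, which has 1 probe set, 1451480_at, read 7.27, 7.44, 7.73 and 7.64 in controls and 7.41, 7.39, 8.20 and 7.94 in experimental samples. It was replicates 3 and 4 that stood above replicates 1 and 2, by 0.33 among controls and by 0.67 among experimental samples, while the difference between the groups was 0.22 ± 0.19 (SE, limma adjusted p = 0.622, interval -0.21 to 0.65). E2f6 showed the same split at 1437914_at, a dim probe set below the array medians. It read 3.97 and 4.14 against 4.29 and 4.28 in controls and 4.13 and 4.08 against 4.76 and 4.77 in experimental samples. At the other E2f6 probe set, 1448835_at, the difference between the groups had the opposite sign (-0.24 ± 0.20 against 0.27 ± 0.18, limma adjusted p = 0.592 and 0.495). Together with E2f1 at 1431875_a_at, 3 family probe sets (14.3%) separated the code styles, against 9.35% of all probe sets. The labels code replicates 1 and 2 as a digit and a letter and replicates 3 and 4 as a letter and digits, and do not say what this marks.

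E2f5 gave no shared direction over its 3 probe sets. The difference was 0.18 ± 0.11 (SE) at 1447625_at, where controls read 7.77 to 8.03 and experimental samples 8.00 to 8.34. It was -0.35 ± 0.19 at 1417444_at, with 3.12 to 3.77 and 2.75 to 3.53, and -0.15 ± 0.10 at 1460207_s_at, with 4.85 to 4.94 and 4.58 to 4.88. Limma's adjusted p was 0.384 to 0.489. The latter pair lay below the array medians, where a fall is hard to measure.

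Of the DP partners, Tfdp1, a subunit shared by most E2F dimers, was level between the groups. It read 10.85, 10.74, 10.82 and 10.77 in controls and 10.78, 11.02, 10.69 and 10.65 in experimental samples at 1423241_a_at. The experimental arrays lay on both sides of the controls, with a difference of -0.01 ± 0.10 (SE, limma adjusted p = 0.967), and its 95% interval of -0.24 to 0.21 leaves room for a small change.

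Tfdp2, the second DP gene, had mean differences of 0.40 to 0.62 at its 4 probe sets, none of which passed (limma adjusted p = 0.178 to 0.383). At 1443962_at controls read 6.23, 6.02, 5.94 and 6.08 and experimental samples 7.84, 6.37, 6.02 and 6.51. At 1437174_at controls read 7.12, 7.09, 6.87 and 6.96 and experimental samples 8.43, 7.33, 7.06 and 7.35. Experimental replicate 1 was the highest of the 8 arrays at all 4 probe sets, and at both of these experimental replicate 3 lay among the controls. At 1435344_at controls read 7.33 to 7.61, and experimental replicate 1 read 8.58 against 7.52 to 7.75 in the other experimental samples. At the dim 1445873_at, with 3.72 to 3.93 in controls, experimental replicate 1 read 4.69 and all 4 experimental samples lay above the controls. Without experimental replicate 1 the differences were 0.16 at 1435344_at, 0.24 at 1437174_at, 0.23 at 1443962_at and 0.29 at 1445873_at, and their limma adjusted p lay between 0.28 and 0.576.

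Erythroid markers were high in the same array. Of 8 erythroid genes measured, 7 were highest in experimental replicate 1, among them Alas2, the first enzyme of haem synthesis in red cell precursors, at 10.96 against 8.14 to 9.55 in the other 7 arrays, and Klf1, an erythroid transcription factor, at 9.99 against 8.45 to 8.97. The exception was Hba-a1, whose probe set read 3.79 to 3.89 in all 8 arrays. The log2 of the summed erythroid level was 13.23 in experimental replicate 1, 11.62 to 12.17 in the other experimental samples and 11.52 to 11.98 in controls. None of the 8 erythroid genes passed limma's test between the groups. The part of erythroid RNA in the Tfdp2 values was not tested.

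**Figure D3:**
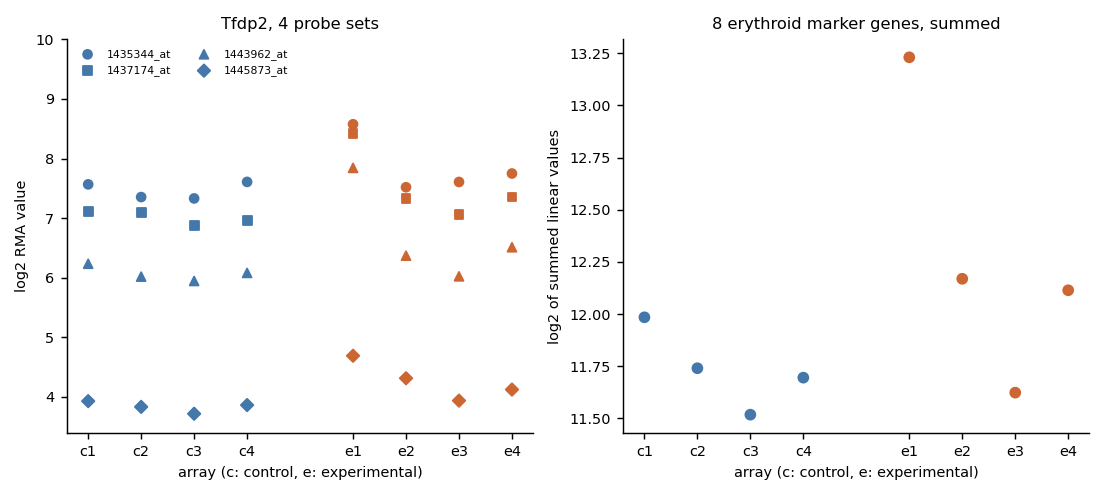
Left, log2 RMA values of the 4 Tfdp2 probe sets in each array; right, log2 of the summed linear values of 8 erythroid marker genes in the same arrays (controls c1 to c4 in blue, experimental e1 to e4 in orange). Experimental replicate 1 is the highest array in both panels, at 13.23 for the erythroid sum.

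The genes whose arrays most resembled those of the called members were found by the root mean square difference between deviations from each gene's own mean over the 8 arrays, among 16336 other named genes, 1 probe set each. This measure includes the difference between the groups, so genes near E2f7 or E2f2 had to be lower in experimental samples as well. The nearest to E2f7 was Cdkn2c, which encodes the CDK4 and CDK6 inhibitor p18 (root mean square difference 0.429 on the log2 scale). It fell by 1.81 ± 0.09 (SE, n = 4 per group, limma adjusted p = 4.3e-05), with experimental arrays at 7.69 to 7.84 and controls at 9.47 to 9.65. Clec4d, a C-type lectin receptor of myeloid cells (0.485), Spc25, a kinetochore subunit (0.493), Thbs1, the secreted protein thrombospondin 1 (0.496), and Fbxo5, whose product Emi1 inhibits the anaphase-promoting complex (0.521), followed. Clec4d fell by 1.71 ± 0.15 and Thbs1 by 2.00 ± 0.23, while Spc25 fell by 1.44 ± 0.13 and Fbxo5 by 1.58 ± 0.10 (limma adjusted p = 0.0018, 0.0044, 0.0019 and 0.00044). The dip of E2f7 in experimental replicate 1, to 5.0, was not matched by Cdkn2c, whose experimental arrays spanned 0.15. Nearest to E2f2 at 1455790_at were Zfp729b (0.0733), the death receptor gene Fas (0.0762), Pias3 (0.102), which encodes an inhibitor of STAT3, the DNA glycosylase gene Neil3 (0.108) and Zfp119b (0.109). Of these Zfp729b fell by 0.65 ± 0.13, Fas by 0.66 ± 0.14, Pias3 by 0.68 ± 0.13 and Neil3 by 0.68 ± 0.10 (limma adjusted p = 0.0347, 0.0426, 0.0309 and 0.0117). Zfp119b did not pass (-0.52 ± 0.14, limma adjusted p = 0.0979). None of the 11 RefSeq windows of Cdkn2c, Clec4d, Spc25, Fbxo5, Fas, Pias3, Neil3 and Zfp119b held TTTCCCGC or TTTGGCGC. Only 1.56% of all windows held either one, so finding none in 11 is no result about these genes. Thbs1 and Zfp729b had no full window and were not searched.

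**Figure D4:**
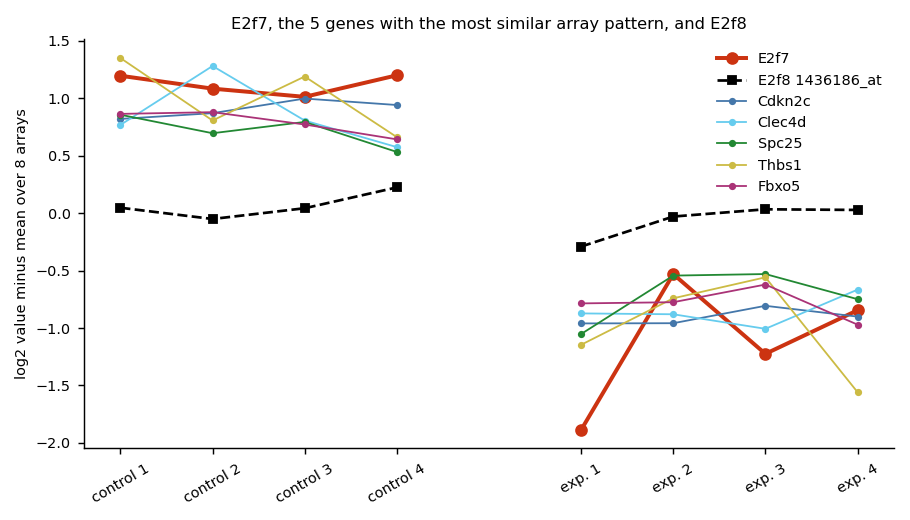
Log2 value minus the mean over 8 arrays (vertical axis) in each array for E2f7 (thick red), the 5 genes with the most similar pattern and E2f8 at 1436186_at (dashed black). E2f7 and its nearest genes lie above 0 in controls and below 0 in experimental samples, while E2f8 at this probe set stays close to 0. The other E2f8 probe set, 1444319_at, is not drawn.

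The proteins that act with, upstream of or downstream of E2F were described by lists, with the brightest probe set standing for a gene. Over all 18193 genes 3.47% were called (1.53% higher and 1.95% lower), with a median difference of 0.01. At an unadjusted limma p under 0.05, 1652 of all genes were higher and 1783 lower. None of the 3 pocket protein genes passed limma's test (1 had an unadjusted p under 0.05): Rbl1, which encodes p107, was at 0.27 ± 0.10 with its 3 other probe sets on the other side of 0, and Rbl2, which encodes p130, at 0.20 ± 0.10 (SE, n = 4 per group). None of 7 genes of the DREAM and MuvB core, the complex that E2f4 joins to repress genes in resting cells, and of its partners Mybl2 and Foxm1 passed (2 had an unadjusted p under 0.05), with Mybl2 at 0.45 ± 0.18 and Foxm1 at -0.28 ± 0.12. None of 9 Polycomb and other partners of E2f6 passed either (2 had an unadjusted p under 0.05), with Epc1 at -0.30 ± 0.08 and Rnf2, which encodes a histone H2A ubiquitin ligase, at -0.36 ± 0.11.

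Genes that set the phosphorylation of the pocket proteins went both ways. Of 8 cyclin and kinase genes upstream of E2F, Cdk6 rose (0.81 ± 0.17 SE, limma adjusted p = 0.0368) and the cyclin E2 gene Ccne2, itself an E2F target, fell (-1.10 ± 0.17, adjusted p = 0.0138); among the fits of 7 arrays Cdk6 passed in 2, those that left out the third control or the second experimental array (limma adjusted p between 0.0254 and 0.0951). Of 7 CDK inhibitor genes, Cdkn1a, which encodes p21, rose by 2.25 ± 0.18 (limma adjusted p = 0.00113) and Cdkn2c fell, as given above. Of 6 genes of E2F turnover and inactivation, Ccnf, which encodes the substrate receptor cyclin F of an SCF ubiquitin ligase, fell by 1.28 ± 0.13 (limma adjusted p = 0.00303), and Ccna2, whose cyclin A2 directs CDK2 to the activator E2Fs, fell by 0.53 ± 0.11 (limma adjusted p = 0.0403). The call of Ccna2 held only without experimental replicate 3 among the 8 fits that leave out 1 array (limma adjusted p between 0.0316 and 0.118). Skp2, an F-box gene, was at -0.47 ± 0.26 and did not pass.

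Of 31 measured genes of a list of G1/S targets of E2F, 17 rose, 1 fell and 13 did not pass, with a median of 0.58, and the smallest p-values belonged to the licensing genes Cdt1 (1.23 ± 0.10 SE, although 1 of its 3 probe sets differed in sign), Orc1 (1.31 ± 0.11) and Cdc6 (1.05 ± 0.09) and to the histone chaperone gene Chaf1b (1.10 ± 0.10). The replication clamp gene Pcna was at 0.03 ± 0.10 and the ribonucleotide reductase gene Rrm2 at -0.10 ± 0.10, both named after their values were seen. The thymidylate synthase gene Tyms fell (-0.59 ± 0.09 at a probe set near the array median). This call was lost without control replicate 4 (limma adjusted p = 0.0505), with the probe sets of a gene averaged and within either code style, and the gene was not tested under the filter of a mean of at least 6. Of 19 genes of a G2/M list 9 fell and 10 did not pass; none rose by limma, also none at an unadjusted p under 0.05, with a median of -0.49; Nusap1, Nuf2, Ndc80 and Cenpf, which act at the spindle and kinetochore, led with -0.98 to -0.80. Only 5 of them fell in each of 4 fits of 7 arrays, those lacking experimental replicate 4 or any control but replicate 2. In the RefSeq windows, 11 of 32 of the G1/S list (34.4%) and 0 of 18 of the G2/M list held TTTCCCGC or TTTGGCGC. The G1/S list was drawn up as targets of E2F, so its share is no independent finding. Whether genes with a motif changed differently from genes without one was not tested. The actin ratio given above separated the groups as these lists did, and its part was not tested.

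**Figure D5:**
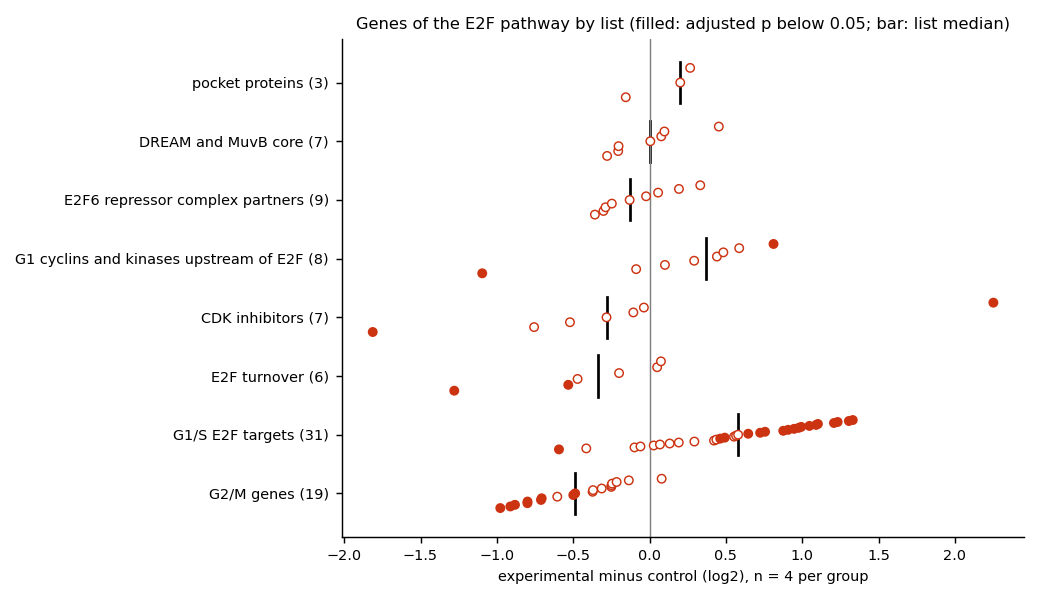
Difference between experimental and control samples (log2, horizontal axis, n = 4 per group) of each measured gene of 8 E2F pathway lists; filled points have an adjusted p under 0.05 and bars mark the list medians. The G1/S targets lie mostly above 0 (median 0.58) and the G2/M genes mostly below 0 (median -0.49).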

How the data were processed

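Expression was measured in 8 samples, 4 control and 4 experimental, on an Affymetrix mouse array from 2.5 µg of total RNA each. The authors deposited log2 values per probe set, and per the submitters' processing notes these were made with RMA, without a version. RMA equalizes the distribution of probe intensities over arrays before it combines probes, and it compresses differences of dim probe sets. The distributions of probe set values were close but not the same, with array maxima from 14.36 to 14.54. The sources used here do not say whether RMA was run on all 8 at once. Of 45101 probe sets, 64 array controls were left out. The remaining 45037 were fitted in R 4.3.3 with lmFit and eBayes of limma 3.58.1. Group was the model's single term, p-values were adjusted by Benjamini-Hochberg across the whole table, and the threshold was 0.05. Errors of differences are moderated standard errors or 95% intervals of that fit. Precision is limited by having 4 arrays a group. The code of the fit was run on simulated arrays with known changes and noise drawn independently for each array. Shared deviations between arrays, described below, were not simulated, so error rates in these data were not tested.

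Probe sets were named by the platform annotation. Named were all family probe sets, the 5 genes nearest in array pattern to each called member, and in each list up to 4 called genes with the smallest p in each direction (the 2 with the smallest p where none passed). Other genes were named after their values were seen. Members and lists were chosen with earlier results of these data known.

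Same-numbered arrays of the groups deviated together from their group means (r = 0.20 to 0.26 over probe sets in all 4 pairs). Other pairs of the same code style gave 0.14 to 0.26, so these values do not separate pairing by number from code style. Pairing by number was used only as an alternative to the main fit, which has no block. The replicate block changed no call of a family probe set. Alternatives were blocks for replicate number, code style and sex read from Xist and Eif2s3y, centring on array medians, a repeated quantile normalization, 2 filters (a mean above the median of all means, or at least 6), a trended and robust variance, array weights, averaged probe sets per gene, each array left out, and replicates 1 and 2 or 3 and 4 alone. Control replicates 1 and 3 and experimental replicate 2 read as male and all other samples as female, so sex was not balanced between the groups.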

Additional observations from a re-analysis of the deposited data

Results flagged for a closer look

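Across the 21 probe sets and both groups, 42 sets of 4 arrays were examined for an array far from the others, and 2 were found, where chance gives about 1 in 20. Both were controls and small in size. At the dim E2f1 probe set 1447840_x_at, control replicate 3 read 3.93, above a next value of 3.81. At E2f3 1434564_at, control replicate 2 read 7.43, below a next value of 7.63.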

How the results depend on the processing

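The number of probe sets called, 1162, was 2277 with the replicate block, 2582 with code style as a block, 663 with inferred sex as a block, 130 in replicates 1 and 2 alone, 418 in replicates 3 and 4 alone, and 395 to 1744 when 1 array was left out. Of 21 family probe sets, 2 were called; 1 was called with sex as a block and in replicates 3 and 4 alone, 0 in replicates 1 and 2 alone, and 1 to 3 without 1 array. E2f7 passed in 18 of 19 alternatives (adjusted p = 0.0843 in replicates 1 and 2 alone). E2f2 at 1455790_at passed in 10 of 19 (0.0707 with sex as a block, 0.153 and 0.161 within the code styles). The replicate block changed no family call; with pairing by number the exact sign-flip permutation p was 0.125, the smallest 4 pairs can give, for E2f7 minus E2f8 (-2.11), E2f2 minus E2f1 (-1.13) and E2f2 minus E2f3 (-0.83); without 1 array these lay between -2.30 and -1.93, -1.41 and -0.96, and -0.96 and -0.74, with permutation p up to 0.0571 for the E2f2 pairs. Tfdp1, near 0, turned positive with sex as a block (0.032), median centring (0.0029), in replicates 1 and 2 alone (0.10) and when 1 of 3 arrays was left out (-0.091 to 0.033 over all 8). Among lists, replicates 1 and 2 alone called 1 CDK inhibitor, 1 turnover gene, 0 upstream cyclins and kinases, 3 G1/S targets and 0 G2/M genes, and replicates 3 and 4 alone 0 turnover genes, 1 upstream gene and 2 G2/M genes. Sex as a block called 1 turnover gene, 1 upstream gene and 5 G2/M genes. Averaging probe sets per gene called 1 upstream gene and 1 E2F6 partner. Without 1 array, 1 to 2 turnover genes, 1 to 3 upstream genes and 5 to 9 G2/M genes were called. The filters on means left 16 and 15 family probe sets. The cause of these shifts was not tested; fits of 7 or 4 arrays hold fewer samples.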
